A study of Mus musculus with 7 samples.

Results

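The genes described here are the eotaxins and the genes by which eosinophils are recognised: Ccl11 and Ccl24 (the eotaxins), Ccr3 (their receptor), Il5 and Il5ra (the eosinophil growth factor and its receptor chain), and Prg2 and Epx (2 granule proteins). They were taken by symbol from the deposited expression table, in which all 7 of the 7 listed symbols were found among 31274 rows. RNA sequencing had been done on whole uteri of intact, unexposed control CD-1 mice (an outbred stock) aged 2 months, 4 libraries at diestrus and 3 at estrus, and every animal in both groups was untreated. Diestrus is the phase of the rodent cycle dominated by progesterone, and estrus follows the estradiol peak. Values are FPKM, fragment counts scaled to transcript length and to the fragments mapped in the library, so levels of different genes can be set side by side per length. It is not stated that each library is a different animal, so the p-values reflect only how far these libraries scatter, which may be technical.

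Eosinophils are granulocytes that enter the uterus in large numbers under estrogen, and the organ is one of the few tissues that hold them without inflammation. Eotaxin 1, made by tissue cells, attracts them through the receptor Ccr3, and interleukin 5 drives their formation in the bone marrow and their survival. Their granules carry major basic protein, encoded by Prg2, and eosinophil peroxidase, encoded by Epx, which are transcribed mainly while the cells mature in the marrow.

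Of the 7 members, Ccr3, Il5ra, Il5 and Epx had an entry in the RefSeq promoter table (GRCm38.p6), while Ccl11, Ccl24 and Prg2 did not. GATA factors direct the formation of eosinophils, so the 250 bases before each start were searched on both strands for the words AGATAA and its variant AGATAG, and for TGATAA and its variant TGATAG, which overlap in their GATA core. Of the 4 promoters, 3 held a match, against 26.5% of 32851 promoter windows of the same length, and a match is a description of the letters, not a site in use. The words were chosen after the promoters had been read and the members' values were known. The Epx window held none. The promoters of both receptor genes, the members that averaged near 1 to 2 FPKM at both stages, are shown with the matches in capitals. That of Ccr3 (chr9:124021721-124021970, plus strand) had 2, beginning 64 and 30 bases before the start, and that of Il5ra (chr6:106749038-106749287, minus strand) had 1, beginning 74 bases before it.
Ccr3: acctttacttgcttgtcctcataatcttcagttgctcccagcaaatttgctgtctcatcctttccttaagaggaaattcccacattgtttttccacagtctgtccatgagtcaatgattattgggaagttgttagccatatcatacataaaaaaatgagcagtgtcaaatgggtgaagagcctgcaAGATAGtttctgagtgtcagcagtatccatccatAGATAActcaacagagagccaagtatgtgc
Il5ra: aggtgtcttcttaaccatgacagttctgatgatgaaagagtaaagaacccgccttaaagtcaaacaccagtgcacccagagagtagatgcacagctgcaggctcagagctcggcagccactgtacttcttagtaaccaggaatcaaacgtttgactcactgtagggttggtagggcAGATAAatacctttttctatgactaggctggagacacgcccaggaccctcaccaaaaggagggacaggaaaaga

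Ccl11, eotaxin 1, had the largest log2 fold change of the members on the log2(FPKM + 1) scale. The gene lies on GRCm38 chromosome 11, 82057823 to 82062955, on the plus strand (protein-coding, GENCODE M21). Its level was 14.8, 13.7, 11.4 and 20.2 FPKM in diestrus replicates 1 to 4 and 89.2, 136.6 and 167.2 FPKM in estrus replicates 1 to 3. Every estrus library stood far above every diestrus library, and the groups were well separated. Groups separated in this direction at 21.9% of tested genes. The ratio of the group means was 8.73, and the log2 fold change on the log2(FPKM + 1) scale was 3.02 (SE 0.25, limma adjusted p = 0.00101). An exact two-sided permutation test over the 35 ways to assign the libraries gave p = 0.0286, the smallest it can give. The change passed the limma test in all 18 settings tried, with log2 fold changes of 2.74 to 3.28. Of all 13920 tested genes, 31.1% passed this test, 17.2% higher and 14.0% lower at estrus, so passing is common here. Among the 20 rows named as Ccl chemokines, Ccl11 held rank 1 in each estrus library and rank 3 or 4 in each diestrus library.

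**Figure D1:**
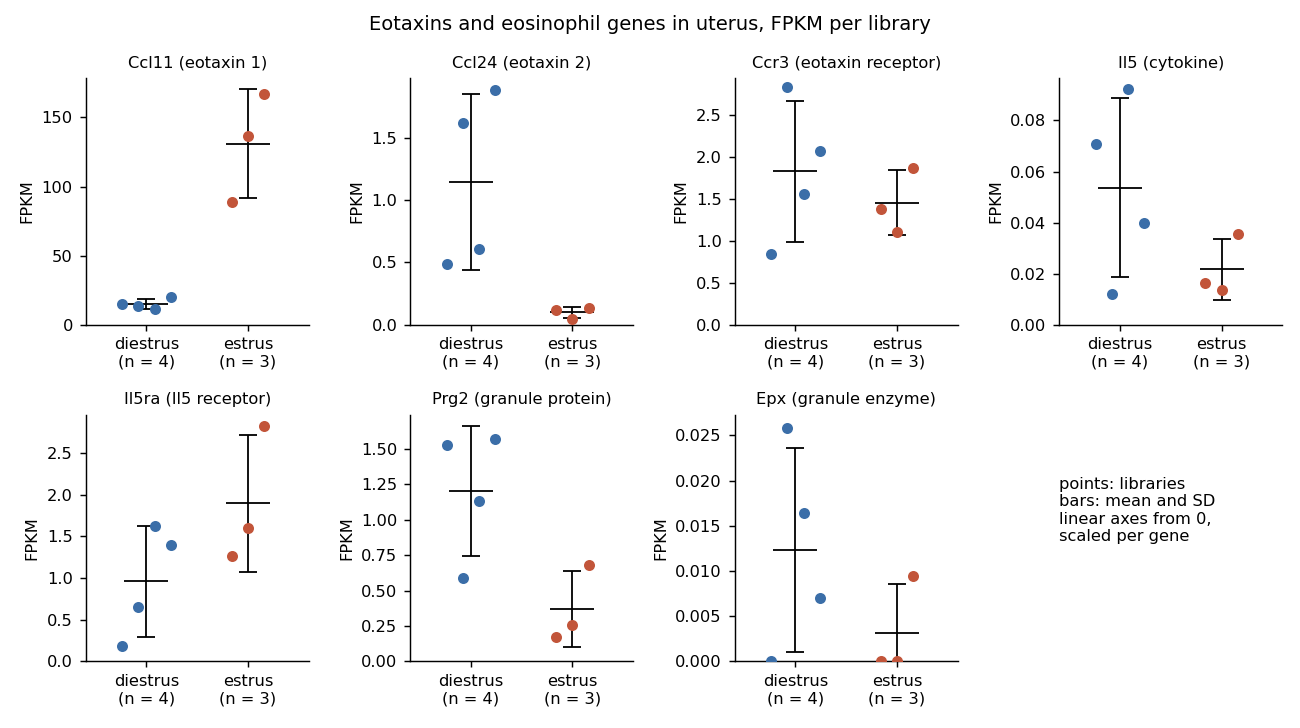
FPKM of the 7 members in each library (points, linear axes from 0 scaled per gene) with the group mean and SD, diestrus n = 4 and estrus n = 3. Ccl11 stood at 89.2 to 167.2 FPKM in estrus against 11.4 to 20.2 in diestrus, Ccl24 was lower in every estrus library, and the other 5 members overlapped between the groups.

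Ccl24, eotaxin 2, is the second eotaxin on Ccr3 and lies on chromosome 5 (135569937 to 135573049, minus strand). It was at 0.486, 1.62, 0.604 and 1.88 FPKM in diestrus and at 0.120, 0.0496 and 0.131 FPKM in estrus. All 3 estrus libraries lay below all 4 diestrus libraries, opposite in direction to Ccl11. It reached 1 FPKM in only 2 libraries, and the filter of at least 1 FPKM in at least 3 libraries left it out of the main test. With no filter its log2 difference was -0.91 (limma adjusted p = 0.0491, where 8.58% of 21444 rows passed as lower), and the exact permutation gave p = 0.0571. Groups that did not overlap, with estrus lower, were found in 16.8% of those rows. The spacing of the lowest values in the table shows what 1 step of reads is worth, and by it the 3 estrus values of Ccl24 equalled 2, 1 and 2 steps (each within 0.05), where 1 step may be 1 fragment or a fixed number of them. The group means, 1.148 and 0.1003 FPKM, stood in a ratio of 11.4, more than the 8.73 of Ccl11, but the estrus level of Ccl24 rests on a handful of reads.

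Other chemokines listed as ligands of Ccr3 were measured beside the eotaxins, and their binding to the mouse receptor was not tested. Of 6 genes listed as Ccr3 ligands 5 were tested, of which 3 rose and 1 fell, where 17.2% of all tested genes rose and 14.0% fell. Their median log2 fold change was 2.72, against 0.048 over all tested genes. Ccl28, a mucosal epithelial chemokine that also binds Ccr10, was at 15.1, 18.0, 3.48 and 2.79 FPKM in diestrus and 88.1, 112.2 and 108.9 in estrus (log2 fold change 3.61, SE 0.59, limma adjusted p = 0.00529). Ccl7, also called monocyte chemoattractant protein 3, was at 0.508 to 2.22 FPKM in diestrus and at 12.0 to 17.2 in estrus (log2 fold change 2.72, SE 0.28, limma adjusted p = 0.00147). Ccl5, a chemokine of T cells and other leukocytes, fell from 6.43 ± 2.57 FPKM (SD, n = 4) to 2.23 ± 0.41 (SD, n = 3), with a limma adjusted p of 0.0211 (0.0521 and 0.091 without estrus replicates 1 and 2). Ccl8, which is close in sequence to other monocyte chemoattractants, varied from 15.0 to 71.1 FPKM in diestrus and from 24.3 to 99.6 in estrus, and did not pass (adjusted p = 0.702). Ccl11 made up 16.2% to 24.2% of the summed FPKM of the 6 listed genes in diestrus and 38.9% to 47.1% in estrus. Ccl8 averaged 39.9 of 73.9 FPKM of that sum in diestrus and 52.1 of 303.2 in estrus, so these shares depend on counting it.

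Ccl11 sits in a run of related chemokine genes on chromosome 11. Of these, 5 are on the plus strand: Ccl2 begins 22.2 kb before its start and Ccl7 12.1 kb before it, while Ccl12 begins 44.0 kb and Ccl8 57.4 kb after it. Ccl1 lies beyond Ccl8 on the minus strand and was not tested, at 0 to 0.0643 FPKM. Of the 5 tested genes of this cluster 3 rose and none fell, where 17.2% of all tested genes rose and 14.0% fell. All 5 log2 fold changes were positive, against a median of 0.048 over all tested genes. That of Ccl8 ran, however, from -0.76 with library weights to 0.73 without estrus replicate 2. It was also below 0 with weights fitted gene by gene, without diestrus replicate 2 and without estrus replicate 3. Ccl12, a chemoattractant for monocytes, was at 2.01 to 2.73 FPKM in diestrus and 7.84 to 14.3 in estrus (log2 fold change 1.99, SE 0.22, limma adjusted p = 0.00164). Ccl2 stood at 1.78 ± 1.73 FPKM (SD, n = 4) and 4.28 ± 0.80 (SD, n = 3) and did not pass (limma adjusted p = 0.0648). Its diestrus replicate 2, at 4.37 FPKM, lay among the estrus values. Without that library its log2 fold change was 1.45 (limma adjusted p = 0.00428), and with library weights it also passed (1.23, adjusted p = 0.00212). With those weights 9367 of 13920 tested genes passed. In the main fit the fold changes were highest at Ccl11 and its neighbour Ccl7 and lowest at Ccl8, the last of these 5, and the differences between the genes were not tested. Over the 18 settings Ccl7 ran from 1.61 to 3.40 and Ccl11 from 2.74 to 3.28, so which of them was highest depended on the setting.

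**Figure D2:**
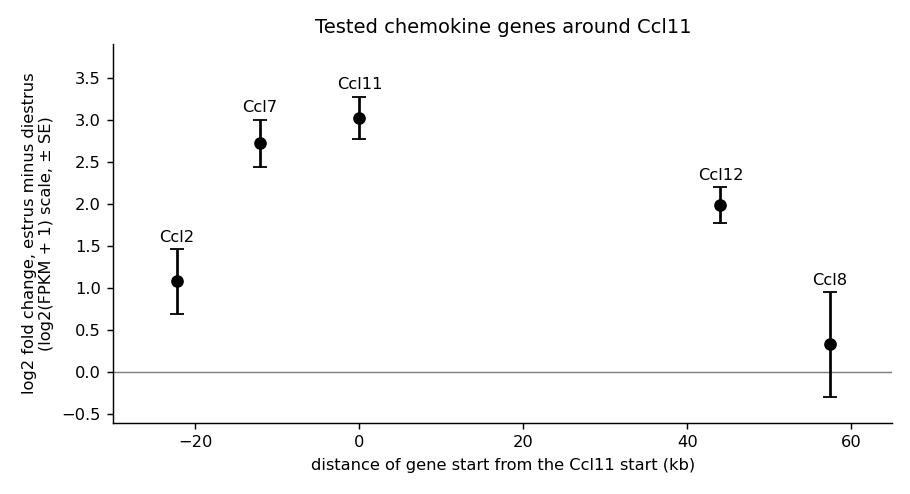
Log2 fold change from diestrus to estrus in log2(FPKM + 1) (points, bars ± SE, y axis) of the 5 tested chemokine genes against the distance of their start from that of Ccl11 in kb (x axis). Ccl11 and Ccl7 stood at 3.02 and 2.72, Ccl12 at 1.99, Ccl2 at 1.08 and Ccl8 at 0.33.

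Ccr3, the eotaxin receptor on eosinophils, did not differ detectably between the stages. The gene lies on chromosome 9 (124021972 to 124031689, plus strand), and its promoter is the first of the sequences given above. It was at 0.848, 2.83, 1.55 and 2.07 FPKM in diestrus and at 1.37, 1.11 and 1.87 FPKM in estrus. The estrus values fell inside the diestrus range, with diestrus replicate 1 the lowest and diestrus replicate 2 the highest of all 7. The log2 fold change was -0.17 (SE 0.26, limma adjusted p = 0.634), with a 95% interval of -0.76 to 0.43. A rise of the size seen for Ccl11 lay outside that interval. With library weights, a setting in which libraries that scatter more count less, Ccr3 passed as lower (log2 fold change -0.43, limma adjusted p = 0.0329, where the fitting of the weights stopped before convergence), and with weights fitted gene by gene it did not (-0.38, adjusted p = 0.0982). With the first kind of weights 9367 of 13920 tested genes passed, 4423 of them lower at estrus. A bulk sample cannot tell fewer cells of a type from less RNA per cell, and this holds for every cell marker given here.

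Il5ra, the chain of the interleukin 5 receptor that binds Il5 itself (chromosome 6, 106710357 to 106749037, minus strand), was at 0.181, 0.654, 1.62 and 1.39 FPKM in diestrus and at 1.26, 1.61 and 2.82 in estrus. The groups overlapped, and the lowest value was again that of diestrus replicate 1. Its log2 fold change was 0.59 (SE 0.32, limma adjusted p = 0.18, 95% interval -0.14 to 1.33). The ligand Il5, made chiefly by type 2 lymphocytes (chromosome 11, 53720794 to 53725106, plus strand), was at 0.0707, 0.0121, 0.0923 and 0.0397 FPKM in diestrus and 0.0163, 0.0135 and 0.0355 in estrus. These values equalled 5, 1, 6 and 3 read steps in diestrus and 1, 1 and 2 in estrus, each within 0.05 of a whole number. Il5 was thus near the limit of detection in every library, and was not tested in the filtered fit (exact permutation p = 0.257). The antisense gene Gm12214 overlaps Il5, and reads from both cannot be told apart without strand.

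Among the 8 genes of the interleukin 5 family of cytokines and receptors, 5 were tested, none rose and 2 fell. The share that fell over all tested genes was 14.0%, and 17.2% rose. Csf2rb, the signalling chain that interleukin 5, interleukin 3 and GM-CSF receptors share, fell from 8.06 ± 2.71 (SD, n = 4) to 3.68 ± 0.24 FPKM (SD, n = 3, limma adjusted p = 0.0268). Its mouse copy Csf2rb2, which serves interleukin 3 alone, fell from 5.63 ± 2.10 (SD, n = 4) to 2.55 ± 0.26 FPKM (SD, n = 3, limma adjusted p = 0.043), and since the copies are near-identical, how their reads were divided is uncertain. The call for Csf2rb was lost without diestrus replicate 3 or any 1 estrus library (adjusted p = 0.0548 to 0.0954), and that for Csf2rb2 without any 1 library other than diestrus replicate 1 (0.0677 to 0.119). The cytokine Il3 was listed at 0 in every library, and Csf2, which encodes GM-CSF, stayed at or below 0.148 FPKM.

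Prg2, which encodes major basic protein, the chief component of the eosinophil granule core, was at 1.53, 0.585, 1.13 and 1.57 FPKM in diestrus and 0.173, 0.257 and 0.680 in estrus (chromosome 2, 84980461 to 84983632, plus strand). Of the estrus libraries only replicate 3 reached into the diestrus range, above diestrus replicate 2. The log2 fold change was -0.68 (SE 0.22, limma adjusted p = 0.0515), just short of the threshold, and the exact permutation gave p = 0.0857. The adjusted p was 0.0249 without diestrus replicate 2 and 0.0469 without estrus replicate 3, and 0.155 and 0.168 without estrus replicates 1 and 2. Without diestrus replicate 1, 3 or 4 the gene no longer passed the filter, since only those 3 libraries reached 1 FPKM. It also passed with a pseudocount of 0.1, median-ratio scaling, no trend and both kinds of library weights (adjusted p = 0.00128 to 0.0496). With those weights most of the 13920 tested genes passed (9367 and 8113). Prg2 thus lay on the border of the threshold, and its values ran lower at estrus, where Ccl11 ran higher.

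Epx, which encodes eosinophil peroxidase (chromosome 11, 87864000 to 87875536, minus strand), was listed at 0 in diestrus replicate 1 and in estrus replicates 1 and 2. The other values were 0.0258, 0.0165 and 0.00704 FPKM in diestrus replicates 2 to 4 and 0.00942 in estrus replicate 3. These equalled 4, 2, 1 and 1 read steps, so 7 steps in diestrus and 1 in estrus. The groups overlapped (exact permutation p = 0.371), and a difference between the stages was not detectable at this depth. The neighbouring Lpo, which encodes the secretory lactoperoxidase of the same enzyme family and ends 35.7 kb from Epx, was at 0.219 to 0.744 FPKM in diestrus and at 16.3, 17.4 and 25.1 in estrus (log2 fold change 3.88, SE 0.20, limma adjusted p = 0.000279). Lpo entered the test only through the estrus libraries. Prg3, the paralog beside Prg2, was above 0 in diestrus replicate 3 alone, at 0.0550 FPKM.

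Eosinophil markers as a whole were sparse at both stages. All 12 genes of the list were in the table (Siglecf under its older name Siglec5), 5 were tested and none passed in either direction, with a median log2 fold change of -0.43. With library weights, whose fitting stopped before convergence, 4 of the 5 fell, where 4423 of all 13920 tested genes fell. With weights fitted gene by gene 2 fell, where 3795 of all tested genes fell. Besides Ccr3, Il5ra and Prg2 the 5 tested markers were Ear2, a ribonuclease of eosinophil granules whose near-identical copies make its reads uncertain (2.12 and 1.26 FPKM on average), and Alox15. Alox15, a lipoxygenase that eosinophils share with macrophages and epithelia, was at 52.1 to 85.8 FPKM in diestrus and 8.45, 34.2 and 55.5 in estrus, far above the other 11 (limma adjusted p = 0.103, or 0.0453 without estrus replicate 1). Without it the summed level of the list was 6.08 to 11.7 FPKM in diestrus and 5.31 to 9.11 in estrus. Siglec5, the inhibitory lectin used to sort mouse eosinophils, was at 0.659 to 1.79 FPKM in diestrus and 0.421 to 0.528 in estrus, groups that did not overlap, but it did not pass the filter. Such separation, with estrus lower, was found in 16.8% of the 21444 rows above 0 in any library. Ear1, also untested, ran higher at estrus on average (0.156 and 0.253 FPKM), with overlapping groups. The order of the members' FPKM was Ccl11, Ccr3, Prg2, Ccl24, Il5ra, Il5 and Epx in diestrus, where the ranges of the 4 from Ccr3 to Il5ra overlapped and so did those of Il5 and Epx. In estrus it was Ccl11, Il5ra, Ccr3, Prg2, Ccl24, Il5 and Epx, and of these neighbours only Il5ra and Ccr3 had overlapping ranges.

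Attractant and receptor were compared within each library. In the plain ratios of FPKM, in which the scaling between libraries cancels and which were not tested, Ccl11 stood at 17.4, 4.83, 7.35 and 9.72 times the FPKM of Ccr3 in diestrus and at 64.9, 123.4 and 89.4 times in estrus. On the log2(FPKM + 1) scale, where the added 1 keeps that scaling from cancelling fully, the difference between both genes was 2.52 ± 0.51 (SD, n = 4) in diestrus and 5.72 ± 0.41 (SD, n = 3) in estrus, a shift of 3.19 (exact permutation p = 0.0286, adjusted over the 3 ratios tested 0.0286). Ccl24 relative to Ccr3 shifted the other way, by -0.74, and Ccl11 relative to Ccl24 shifted by 3.93, each with an exact permutation p and adjusted p of 0.0286, the smallest value possible. Groups did not overlap in any of the 3 ratios. For Ccl11 over Ccl24 this was fixed in advance, since Ccl11 was higher and Ccl24 lower in every estrus library. The separation of Ccl11 over Ccr3 likewise restates that of Ccl11, whose groups lay further apart than the whole spread of Ccr3. Both p-values are thus no support beyond that of the single genes. In estrus Ccl24 stood at only 0.0699 to 0.177 on this scale, against 1.08 to 1.52 for Ccr3. The estrus values of Ccl24 over Ccr3 thus rest almost wholly on Ccr3. The size of both shifts with Ccl24 depended on the pseudocount: relative to Ccr3 it was -2.24 with 0.1 (p = 0.0286) and -0.19 with 5 (p = 0.0571), and for Ccl11 relative to Ccl24 it was 5.57 and 3.00 (both exact p = 0.0286).

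**Figure D3:**
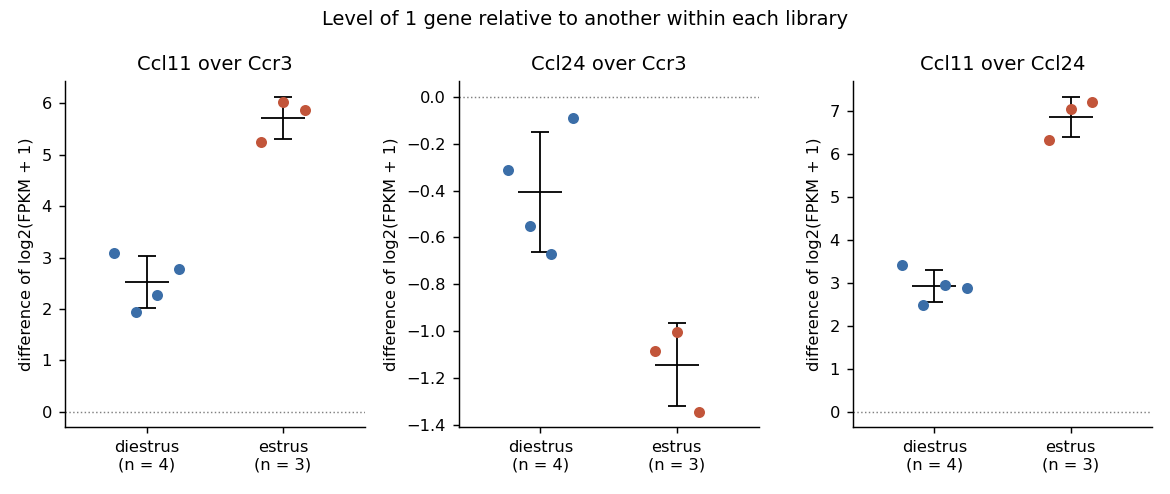
Difference of log2(FPKM + 1) between 2 genes within each library (points) with the group mean and SD, for Ccl11 over Ccr3, Ccl24 over Ccr3 and Ccl11 over Ccl24, diestrus n = 4 and estrus n = 3. The means moved from 2.52 to 5.72, from -0.41 to -1.14 and from 2.93 to 6.86.

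Genes of the surrounding type 2 response and of eosinophil entry were taken as lists. Of 12 type 2 cytokine and receptor genes 7 were tested, 2 rose and none fell, with a median of 0.13. Over all tested genes 17.2% rose and 14.0% fell. The risers were both chains of the receptor that binds interleukin 4 and interleukin 13, Il4ra, from 29.2 ± 5.38 (SD, n = 4) to 82.8 ± 14.2 FPKM (SD, n = 3, limma adjusted p = 0.00233), and Il13ra1, from 18.0 ± 1.98 (SD, n = 4) to 52.2 ± 6.33 FPKM (SD, n = 3, limma adjusted p = 0.00124). The ligands were nearly undetected, Il4 at 0 to 0.257 FPKM and Il13 at 0 to 0.0204 FPKM over all libraries. Stat6, the transcription factor these receptors activate, stood at 33.5 to 40.2 FPKM in diestrus and 33.4 to 45.7 in estrus (limma adjusted p = 0.488). Il33, an alarmin that activates type 2 lymphocytes, was at 2.86 to 4.02 and 3.34 to 5.53 FPKM (limma adjusted p = 0.289).

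Of 10 adhesion and entry genes 9 were tested, 1 rose and 2 fell, with a median of -0.24. Of all tested genes 17.2% rose and 14.0% fell, so such counts are common. Itgam, the alpha chain of Mac-1 on myeloid cells, was at 4.19 to 9.03 FPKM in diestrus and at 22.9, 66.2 and 99.5 in estrus (log2 fold change 2.80, SE 0.47, limma adjusted p = 0.00572). Its beta partner Itgb2 was at 11.0 ± 3.07 (SD, n = 4) and 6.28 ± 0.10 FPKM (SD, n = 3, limma adjusted p = 0.0501), short of the threshold and opposite in sign. Itgb7, a lymphocyte and eosinophil integrin, fell from 4.07 ± 0.75 (SD, n = 4) to 1.93 ± 0.19 FPKM (SD, n = 3, limma adjusted p = 0.0109, or 0.0616 without estrus replicate 2). Selp, the endothelial P-selectin, fell from 5.97 ± 1.92 (SD, n = 4) to 2.87 ± 0.82 FPKM (SD, n = 3, limma adjusted p = 0.038). The call for Selp was lost without diestrus replicates 2, 3 or 4 or estrus replicates 1 or 2 (0.0561 to 0.148). Vcam1 and Icam1, the endothelial ligands of eosinophil integrins, did not pass (limma adjusted p = 0.763 and 0.362).

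Of 4 listed genes that restrain eosinophils or cleave eotaxin, 3 were tested and fell, where 14.0% of all tested genes fell. Cd300a entered the test only through the diestrus libraries. Dpp4, the membrane peptidase that trims the amino terminus of Ccl11 and so lowers its activity, was at 31.8, 31.6, 49.1 and 43.5 FPKM in diestrus and 19.3, 14.9 and 17.5 in estrus (log2 fold change -1.12, SE 0.19, limma adjusted p = 0.00582). It passed in all 18 settings. Pirb and Cd300a, inhibitory receptors of myeloid cells, had log2 fold changes of -0.60 and -0.70 (limma adjusted p = 0.0305 and 0.0492). Pirb lost the call without diestrus replicates 2, 3 or 4 or estrus replicates 1 or 2 (0.0639 to 0.132), and Cd300a without diestrus replicates 2 or 4 or any 1 estrus library (0.0625 to 0.177).

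**Figure D4:**
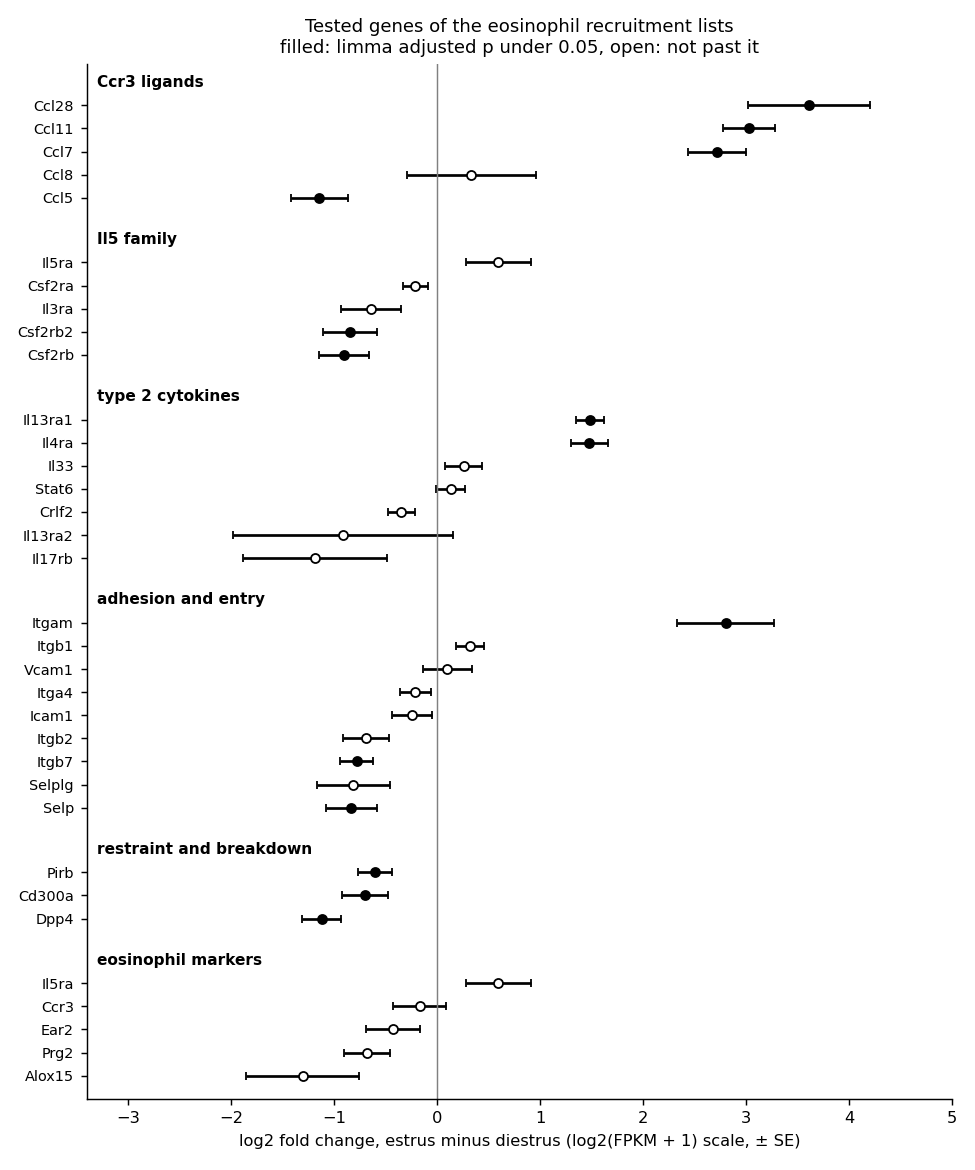
Log2 fold change from diestrus to estrus in log2(FPKM + 1) (x axis, bars ± SE) of each tested gene of 6 lists, filled where the limma adjusted p was under 0.05. Ccl28, Ccl11 and Ccl7 lie at 3.61, 3.02 and 2.72 and Itgam at 2.80, while Dpp4 lies at -1.12 and no eosinophil marker is filled.

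Markers of other cells show what else differed in these uteri. The counts below stand beside 17.2% of all tested genes that rose and 14.0% that fell. The 5 tested epithelial markers had a median log2 fold change of 1.41 and 4 rose, with a summed level of 623.8 to 812.8 FPKM in diestrus and 1634 to 1927 in estrus. The mast cell list had 4 falls among 5 tested genes and summed to 31.8 to 66.0 FPKM in diestrus and 10.7 to 14.9 in estrus, and the falls numbered 2, 1 and 1 without estrus replicates 1, 2 and 3. The macrophage list had 4 falls among 7 tested genes and summed to 265.0 to 651.5 and 157.8 to 241.3 FPKM, with 2, 2, 0 and 2 falls without diestrus replicate 4 and estrus replicates 1, 2 and 3. Its members C1qa, Cd68 and Mrc1 did not pass, with log2 fold changes of -0.92, 0.38 and -0.04 (limma adjusted p = 0.0512, 0.537 and 0.907). Of 4 general leukocyte markers, all tested, Coro1a fell (in 10 of 18 settings) and none rose. There 3 log2 fold changes were negative and that of Laptm5 was 0.24. Of the 8 genes of the T cell and type 2 lymphoid list, Cd3g and Cd4 were tested, both entering only through the diestrus libraries, and fell, with list sums of 5.13 to 9.12 and 2.29 to 3.06 FPKM. Cd4 lost its call without diestrus replicates 2 or 4 or any 1 estrus library (limma adjusted p = 0.0828 to 0.154). Areg, on the same list and untested, was higher in every estrus library (0.395 to 0.452 FPKM, against 0.0379 to 0.275). Such separation, with estrus higher, was found in 21.9% of tested genes, a set without Areg. Neutrophil markers summed to 15.0 to 52.5 and 23.9 to 30.3 FPKM, and none of the 3 tested passed. Most of that sum was Retnlg, averaging 29.3 of 32.9 FPKM in diestrus and 23.0 of 26.6 in estrus. Csf3r ran lower at estrus (1.38 and 0.388 FPKM, limma adjusted p = 0.0509) and S100a9 higher (1.03 and 1.85, adjusted p = 0.111). Csf3r entered the test only through the diestrus libraries. Basophil markers stayed at or below 0.258 FPKM in sum. All 5 endothelial markers were tested and fell, with a median of -1.23 and sums of 157.4 to 386.0 FPKM in diestrus and 94.7 to 125.9 in estrus, and the falls numbered 3, 2 and 0 without diestrus replicate 3 and estrus replicates 1 and 2. The fall of the endothelial gene Selp stood beside these, and their part in it was not tested. Of 6 stromal markers Thy1 and Vim fell and none rose, and of 4 smooth muscle markers Actg2 rose and none fell. Vim lost its call without diestrus replicates 3 or 4 or any 1 estrus library (limma adjusted p = 0.0673 to 0.117), and Actg2 without diestrus replicates 2 or 3 or estrus replicates 2 or 3 (0.0549 to 0.106). Most tested epithelial markers were thus higher, and most tested macrophage, mast cell and endothelial markers lower, at estrus. They stood beside the members' values, and their part in the values of Ccl11, Ccl24 and Prg2 was not tested.

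**Figure D5:**
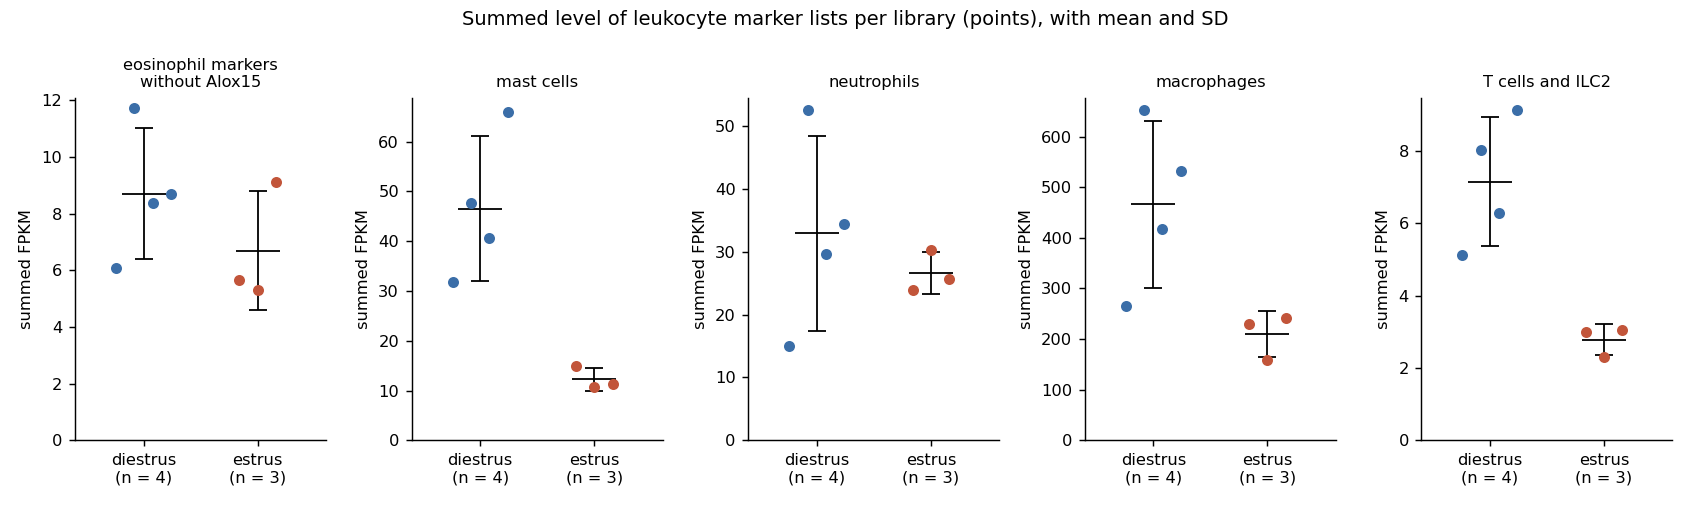
Summed FPKM of the genes of 5 leukocyte marker lists in each library (points) with the group mean and SD, diestrus n = 4 and estrus n = 3. The eosinophil sum without Alox15 overlapped between the stages (6.08 to 11.7 and 5.31 to 9.11 FPKM), as did the neutrophil sum, while the mast cell, macrophage and T cell sums were lower in every estrus library. The largest part of the macrophage sum was Lyz2, and that of the neutrophil sum was Retnlg.

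For each tested member the genes named here are from the 5 with the most similar pattern over the 7 libraries, out of about 10062 genes averaging 5 FPKM or more, as a description over libraries that share stage and depth. Ccl11 ran closest to Idh1, a cytosolic isocitrate dehydrogenase (Pearson r = 0.997), Ptger1, a prostaglandin E receptor (0.996), Myo18a, Fnta and the cathepsin Ctsh, but 294 genes exceeded 0.95, since many genes split the stages. Ccr3, which did not, ran closest to H2-D1, a class I antigen (0.984), Mfn1, the complement receptor gene C3ar1 (0.957) and Dtnbp1, and 3 genes exceeded 0.95. Il5ra was closest to Spint2 (0.991), Tax1bp1, Cpt1a, Polr3c and Pde4d, and Prg2 to Slc35f5 (0.973), Rev3l, Lztr1 and Mettl23. Between members, Pearson r over the 7 libraries was -0.208 for Ccl11 with Ccr3, -0.693 for Ccl11 with Prg2, 0.635 for Ccl11 with Il5ra, -0.00291 for Ccr3 with Prg2, 0.235 for Ccr3 with Il5ra and -0.316 for Prg2 with Il5ra.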

How the data were processed

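Libraries had been prepared with an Illumina kit from column-purified RNA, per the labels' protocols. The authors deposited FPKM, 1 column per library, and the columns were matched to samples by their descriptions, with 0 left over. Per the submitters' processing notes, TopHat2 2.0.4 and mm10 are listed, with no role given. The program behind the FPKM is not given in the sources used here. Relative depth, from the spacing of values under 0.1 FPKM, was 0.923 to 1.35 times that of estrus replicate 1, a check added after the values were seen.

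A gene was tested where 3 or more libraries reached 1 FPKM, which held for 13920 genes and 4 members. Values of log2(FPKM + 1) were fitted for all of these genes in limma 3.58.1 (R 4.3.3), with a trend and Benjamini-Hochberg adjustment at 0.05. Fold changes compare estrus with diestrus in these values, which understates changes of low genes. Single values and the 3 within-library ratios were tested by exact permutation of the absolute difference of means. The fit was tested on simulated data. The members, 18 lists of genes and the rule on which genes to name (all members, any list gene, and the 5 most correlated genes per tested member) were chosen with earlier results of these data known. Of the correlated genes, 2 are not reported here. Alternatives were other pseudocounts, filters, scalings and moderation, weights per library (by 2 methods, the second added after the data were seen), blocking by replicate number, and omission of single libraries. Figures were drawn with matplotlib 3.10.9. Coordinates are those of GENCODE M21 (GRCm38), and promoters those of RefSeq.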

Additional observations from a re-analysis of the deposited data

Results flagged for a closer look

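In 27 genes of the member and recruitment lists, the 4 diestrus libraries were searched for a value far from the rest, where the gap to the nearest library exceeded 0.829 of the whole range. Chance marks about 1 in 20 groups. Ccl2 stood at 4.37 FPKM in diestrus replicate 2, against 0.817 to 0.979 in the other diestrus libraries, with a gap of 0.954 of the range. Ccl12 stood at 2.73 FPKM in diestrus replicate 1, against 2.01 to 2.05 in the others, with a gap of 0.945 of the range. No member met this condition.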

How the results depend on the processing

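Ccl11 kept its direction and passed in every setting. The log2 fold change of Prg2 was -1.54 with a pseudocount of 0.1, -0.69 with median-ratio scaling, and -0.68 without the trend, and it passed in these (limma adjusted p = 0.0466, 0.0496 and 0.0459), so that 2 members passed instead of 1. Library weights by limma's default method stopped before convergence, and the gene-by-gene method was added after that was seen. The default gave 3 members, Prg2 at -0.81 and Ccr3 at -0.43 (adjusted p = 0.00128 and 0.0329), and the other gave 2, Prg2 at -0.79 (0.00491) and Ccr3 at -0.38 (0.0982). Most of the 13920 tested genes passed with either method (9367 and 8113), so passing says little there. With no filter Ccl24 was the second of 2. Leaving out single libraries gave -0.83 to -0.57 for Prg2 and 1 to 2 members. Ccr3 had a log2 fold change of 0.0077 with quantile normalization (adjusted p = 0.983), opposite in sign. Ccl24 had an exact permutation p of 0.0286 and a log2 difference of -2.47 with a pseudocount of 0.1, and its shift relative to Ccr3 was -0.19 with a pseudocount of 5 (p = 0.0571). Without single libraries the shifts ran from 3.00 to 3.43 for Ccl11 over Ccr3, from -0.82 to -0.63 for Ccl24 over Ccr3 and from 3.75 to 4.19 for Ccl11 over Ccl24. The exact permutation cannot go below 0.1 or 0.0667 then, so these p-values say nothing about stability. The count of all genes that changed was 4336 (2393 higher, 1943 lower). It was 9367 with default library weights (4944 and 4423), 8113 with the gene-by-gene method (4318 and 3795), 2633 and 1433 without estrus replicates 1 and 2, and 2559 without diestrus replicate 4, with ranges of 1433 to 5311 (854 to 2866 higher, 579 to 2445 lower) without single libraries. With a mean of at least 5 FPKM 1181 genes were lower. The fit with the replicate block, which drops diestrus replicate 4, gave 2403 (1374 and 1029), with Ccl11 at 3.17 and Il5ra at 0.71 (adjusted p = 0.00737 and 0.0538). Same-numbered libraries correlated in their deviations at 0.163, -0.00083 and 0.228, so the numbers were not taken to pair the libraries. The cause of these differences was not tested. Depth limits Il5, Epx and the estrus level of Ccl24, which rest on single read steps.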
